A study of Mus musculus with 84 samples.

Results

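Transcription factors of the naive pluripotency network, 10 in number, were followed through the reprogramming of mouse embryonic fibroblasts (MEFs). They are Nanog, Esrrb, Tfcp2l1, Zfp42, Klf2, Klf5, Tbx3, Nr0b1, Prdm14 and Sall4, taken by gene symbol as 10 of the 18909 genes in the count table, and all 10 were found. Their RNA was read by STRT (single-cell tagged reverse transcription) sequencing, which captures the 5′ ends of transcripts. The samples were wild-type MEFs of strain 129, embryonic stem cells (ESCs) and reprogramming cells of day 3, day 6, day 8 and day 10. Each of the 10 groups held 3 biological replicates. The 3 wells of a replicate (2 wells on day 10) were summed into 1 library, and the 30 libraries held between 1008596 and 2296059 reads.

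The ESCs were TNG MKOS ESCs, which carry the MKOS-ires-mOrange cassette, in which doxycycline turns on c-Myc, Klf4, Oct4, Sox2 and an mOrange reporter, a reverse tetracycline transactivator driven by the CAG promoter, and GFP placed at the start codon of 1 Nanog allele. The reprogramming cells were MEFs of the same genotype, obtained from chimeric embryos and mixed with wild-type MEFs, and were infected with a pMXs retrovirus that expressed a blue fluorescent protein (Cont) or Smad3CA, a constitutively active form of SMAD3 (+Sm3CA). Both series were cultured in ESC medium with LIF, vitamin C and 300 ng/ml doxycycline and sorted for mOrange. All reprogramming cells and the ESCs therefore have a single intact Nanog allele, while the MEF group has both. The reporter allele keeps the Nanog promoter and transcription start, so its 5′-end reads may have been counted as Nanog, which was not tested. ESCs were grown in the same medium without doxycycline or vitamin C, and MEFs without LIF but with FGF2 and heparin. The replicates of a series are paired across days by the study's design.

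Naive pluripotency is the state of the mouse preimplantation epiblast and of mouse ESCs kept with LIF. It is held by a network of transcription factors that bind the regulatory elements of each other's genes together with OCT4 and SOX2, and most of these genes are silent or nearly so in fibroblasts. LIF signaling through STAT3 and WNT signaling through β-catenin feed into the network at different members, Tfcp2l1, Klf5 and Tbx3 among those linked to LIF and Esrrb and Tfcp2l1 among those that are derepressed by WNT signaling.

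The 250 bases before a RefSeq start site are printed for 4 members. These could be tested along the time course and had a sequence at hand. The windows are from RefSeq on GRCm38.p6, the build of the count table (mm10). They were at hand for 6 of the 10 members (Nanog, Esrrb, Tfcp2l1, Zfp42, Klf2 and Nr0b1) but not for Klf5, Tbx3, Prdm14 and Sall4. Nanog and Esrrb had 2 windows each, of which only the first was searched and printed. Each is written 5′ to 3′ on the strand of the gene, and capitals mark matches to ATGCAAA (the core of the octamer bound by OCT4), ACAATG (SOX factors), CCACCC (KLF factors) and CAGAC (SMAD proteins), each searched on both strands. These 4 motifs did not overlap one another in the windows printed.

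Nanog, chr6:122707239-122707488, plus strand: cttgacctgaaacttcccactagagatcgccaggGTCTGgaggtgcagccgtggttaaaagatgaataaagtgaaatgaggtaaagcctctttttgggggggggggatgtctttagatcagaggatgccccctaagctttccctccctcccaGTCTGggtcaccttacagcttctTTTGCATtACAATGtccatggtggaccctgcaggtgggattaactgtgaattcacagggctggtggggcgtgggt
Zfp42, chr8:43307010-43307259, minus strand: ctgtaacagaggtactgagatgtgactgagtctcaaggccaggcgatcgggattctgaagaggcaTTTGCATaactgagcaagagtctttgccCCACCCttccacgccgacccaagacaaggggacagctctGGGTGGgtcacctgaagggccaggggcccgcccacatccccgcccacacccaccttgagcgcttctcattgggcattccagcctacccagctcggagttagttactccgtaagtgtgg
Esrrb, chr12:86360867-86361116, plus strand: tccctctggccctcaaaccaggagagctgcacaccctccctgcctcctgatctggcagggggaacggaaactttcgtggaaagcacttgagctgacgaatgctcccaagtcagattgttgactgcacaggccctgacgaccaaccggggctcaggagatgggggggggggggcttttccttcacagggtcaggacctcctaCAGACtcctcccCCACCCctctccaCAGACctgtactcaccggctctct
Tfcp2l1, chr1:118627695-118627944, plus strand: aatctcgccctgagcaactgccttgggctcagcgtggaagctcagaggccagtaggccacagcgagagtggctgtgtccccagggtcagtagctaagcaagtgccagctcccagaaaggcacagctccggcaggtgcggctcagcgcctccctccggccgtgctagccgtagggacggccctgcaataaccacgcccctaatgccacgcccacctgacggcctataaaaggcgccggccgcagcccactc

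The octamer core was found in 2 of the 6 windows, 75 to 69 bases before the start of Nanog and 185 to 179 bases before that of Zfp42, against 4.12% of the 32851 promoter windows of this length in the table. In Nanog it was followed by the SOX motif 67 to 62 bases before the start, the single SOX match in the 6 windows (10.7% of all windows held one). The KLF motif was present in Zfp42 (at 2 positions), Esrrb, Klf2 and Nr0b1, and in 28.1% of all windows. The SMAD motif was present at 2 positions each in Nanog and Esrrb and in 42.2% of all windows. Tfcp2l1 held none of the 4 motifs in this window. For a SMAD3 chromatin immunoprecipitation the study designed primers at several of these genes, and both primers for Zfp42 lie inside the window above, 210 to 123 bases before the start, around the octamer core.

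Rex1-Smad3-R1: aggcgatcgggattctgaag
Rex1-Smad3-F1: ctgtccccttgtcttgggtc

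Before the levels are described, the ESC libraries need a word, since every level below is also given as a share of the ESC level. ESC replicate 2 stood apart from the other 2. Among 3629 genes with a mean of at least 50 normalized counts in ESCs, 116 differed more than 4-fold from the mean of the other ESC libraries in replicate 2 (25 higher and 91 lower), against 5 in replicate 1 and 9 in replicate 3. Nanog was one of them, with 327 reads in replicate 1, 12 in replicate 2 and 222 in replicate 3. The low Nanog count was shared by all 3 wells of replicate 2, which held 2, 4 and 6 Nanog reads against 36 to 114 in the wells of the other replicates. Gapdh was low in the same wells, with 63 to 78 reads against 1467 to 5522.

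In units of DESeq2-normalized counts (read counts divided by a size factor for each library), Nanog was at 299, 21.7 and 285 in the 3 ESC libraries. Klf2 went the other way, at 109, 363 and 141, as did Nr0b1 at 77.6, 199 and 84.9. Klf5 was at 39.3, 19.9 and 43.7. For 6 of the 10 members the highest ESC library was replicate 2 and for 3 it was the lowest, though Tfcp2l1, at 280, 262 and 302, had its lowest value there by a small margin. The share of ESC is therefore given as a percent of the mean of all 3 ESC libraries and, where it matters, of the mean of replicates 1 and 3. The SD printed with a share takes the ESC mean as fixed and so leaves out the spread of the ESC libraries. The SD of the ESC libraries ran from 7.18% of their mean for Tfcp2l1 to 77.4% for Nanog.

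**Figure D1:**
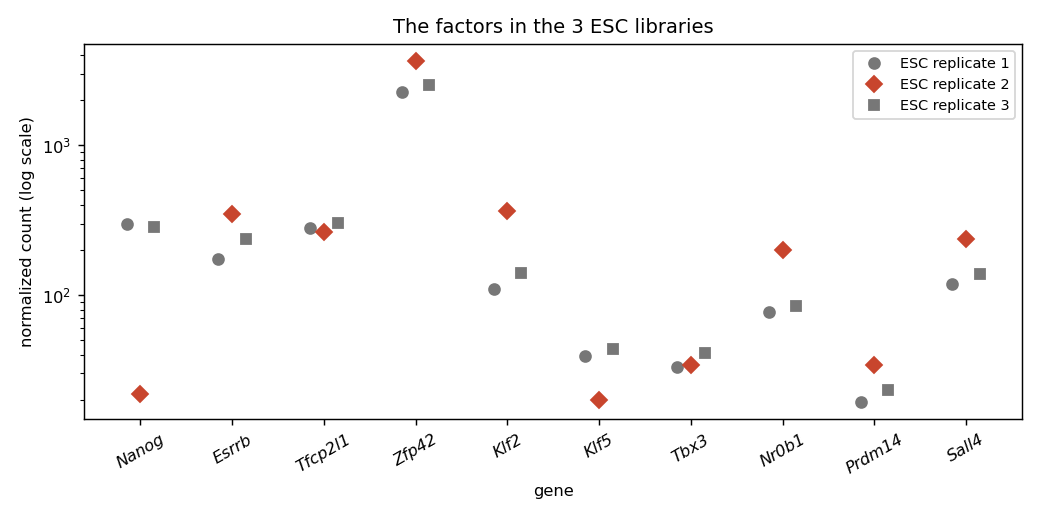
Normalized count (vertical axis, log scale) of the 10 factors in the 3 ESC libraries, 1 point per library. Replicate 2 (red diamonds) lies at 21.7 for Nanog, far below the 285 and 299 of the other libraries, and above them for Klf2, Nr0b1 and Sall4.

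The identity of the start and end cells was checked with their markers. The 10 fibroblast markers, Col1a1, Col1a2 and Thy1 among them, summed to 4270 to 5910 normalized counts in MEFs and to 3.65 to 12.6 in ESCs, where 5 of them had no read. The 10 ESC markers, Dppa5a and Fgf4 among them, summed to 28300 to 51400 in ESCs and to 7.78 to 11.9 in MEFs. The reprogramming cells lay between these levels in both lists on every day. Smad3, whose reads include the Smad3CA vector, was above every Cont library in every +Sm3CA library of each day, with 89.0 to 184 against 5.19 to 18.7 normalized counts on day 3 and 32.8 to 47.7 against 14.8 to 25.4 on day 10.

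All 10 factors were higher in ESCs than in MEFs by the quasi-likelihood test of edgeR (adjusted by Benjamini-Hochberg over all genes), in a comparison where 23.5% of the 8798 genes tested were higher. Some had no reads in MEFs and others were already present there. Esrrb, Tfcp2l1, Nr0b1, Prdm14 and Sall4 had 0 reads in the 3 MEF libraries together. These genes, and Nanog with 1 read, passed the filter on low counts only through the ESC libraries, where they were high. As the list was also chosen as genes of the ESC network, their calls were fixed in advance and carry no weight as a test. A count of 0 was set to 3 reads over the group, near its 95% upper limit, and the ESC reads were taken as exact. On that basis ESCs were at least 232-fold higher in Esrrb, 281-fold in Tfcp2l1, 107-fold in Nr0b1, 23.7-fold in Prdm14 and 150-fold in Sall4. Such limits cover the counting error of the 0 alone, and the intervals below that of both counts, with no other source of spread. Reads rather than molecules were counted, so copies of 1 molecule may enter more than once. Nanog had 1 read in MEFs and 561 in ESCs, a ratio of 689 with a 95% interval (exact, from the read counts) of 123 to 27200, and Zfp42 had 5 reads in MEFs against 6462 in ESCs.

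Tbx3, a T-box factor that also acts in limb and organ development, was present in MEFs at 12.2, 6.51 and 10.4 normalized counts against 32.9, 34.3 and 41.1 in ESCs. The MEF libraries lay below all ESC libraries, but at 26.9% ± 8.06 (SD, n = 3) of the ESC level. Klf5, a Krüppel-like factor needed for the early epiblast and also expressed in epithelia and smooth muscle, was at 4.44, 8.68 and 9.51 in MEFs, which was 22.0% ± 7.92 of the ESC level. Klf2, another Krüppel-like factor known for its role in endothelium and quiescent lymphocytes, was at 4.44, 9.77 and 6.91, or 3.45% ± 1.30 (5.63% without ESC replicate 2). The log2 fold change from MEFs to ESCs was 1.88 for Tbx3 (standard error 0.47, adjusted p = 0.00333), 2.18 for Klf5 (standard error 0.53, adjusted p = 0.00254) and 4.81 for Klf2 (standard error 0.52, adjusted p = 1.24e-06, all from edgeR).

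Reprogramming cells of the control series already differed from MEFs on day 3. By edgeR in a fit of all 30 libraries, Zfp42 and Sall4 were higher and Klf2 was lower in Cont than in MEFs, 3 of the 10 members, while 43.4% of all 10979 genes tested were called in this comparison. Zfp42, also called Rex1, encodes a zinc finger protein widely used as a marker of naive cells, and went from 0, 2.17 and 2.59 normalized counts in MEFs to 14.3, 7.78 and 14.6 on day 3 (2.95 in log2 with a standard error of 0.63, adjusted p = 0.000177). Sall4, a zinc finger factor of the spalt family that partners with OCT4 and NANOG, had 0 reads in MEFs and 2, 2 and 3 reads in the day 3 libraries (adjusted p = 0.0118). With 3 reads in place of the 0 and the day 3 reads taken as exact, it was at least 2.23-fold higher. Klf2 had 21 reads in MEFs and 2 on day 3 and was 11-fold lower (95% counting interval 2.69 to 96.9, adjusted p = 0.00768). When the 6 libraries of these groups were fitted on their own, none of the 3 genes passed that fit's filter on low counts, so they were not tested there. Klf5, at 3.57, 1.30 and 2.44, lay below all MEF libraries on day 3 but did not pass the test (log2 fold change −1.43, standard error 0.75, adjusted p = 0.118).

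**Figure D2:**
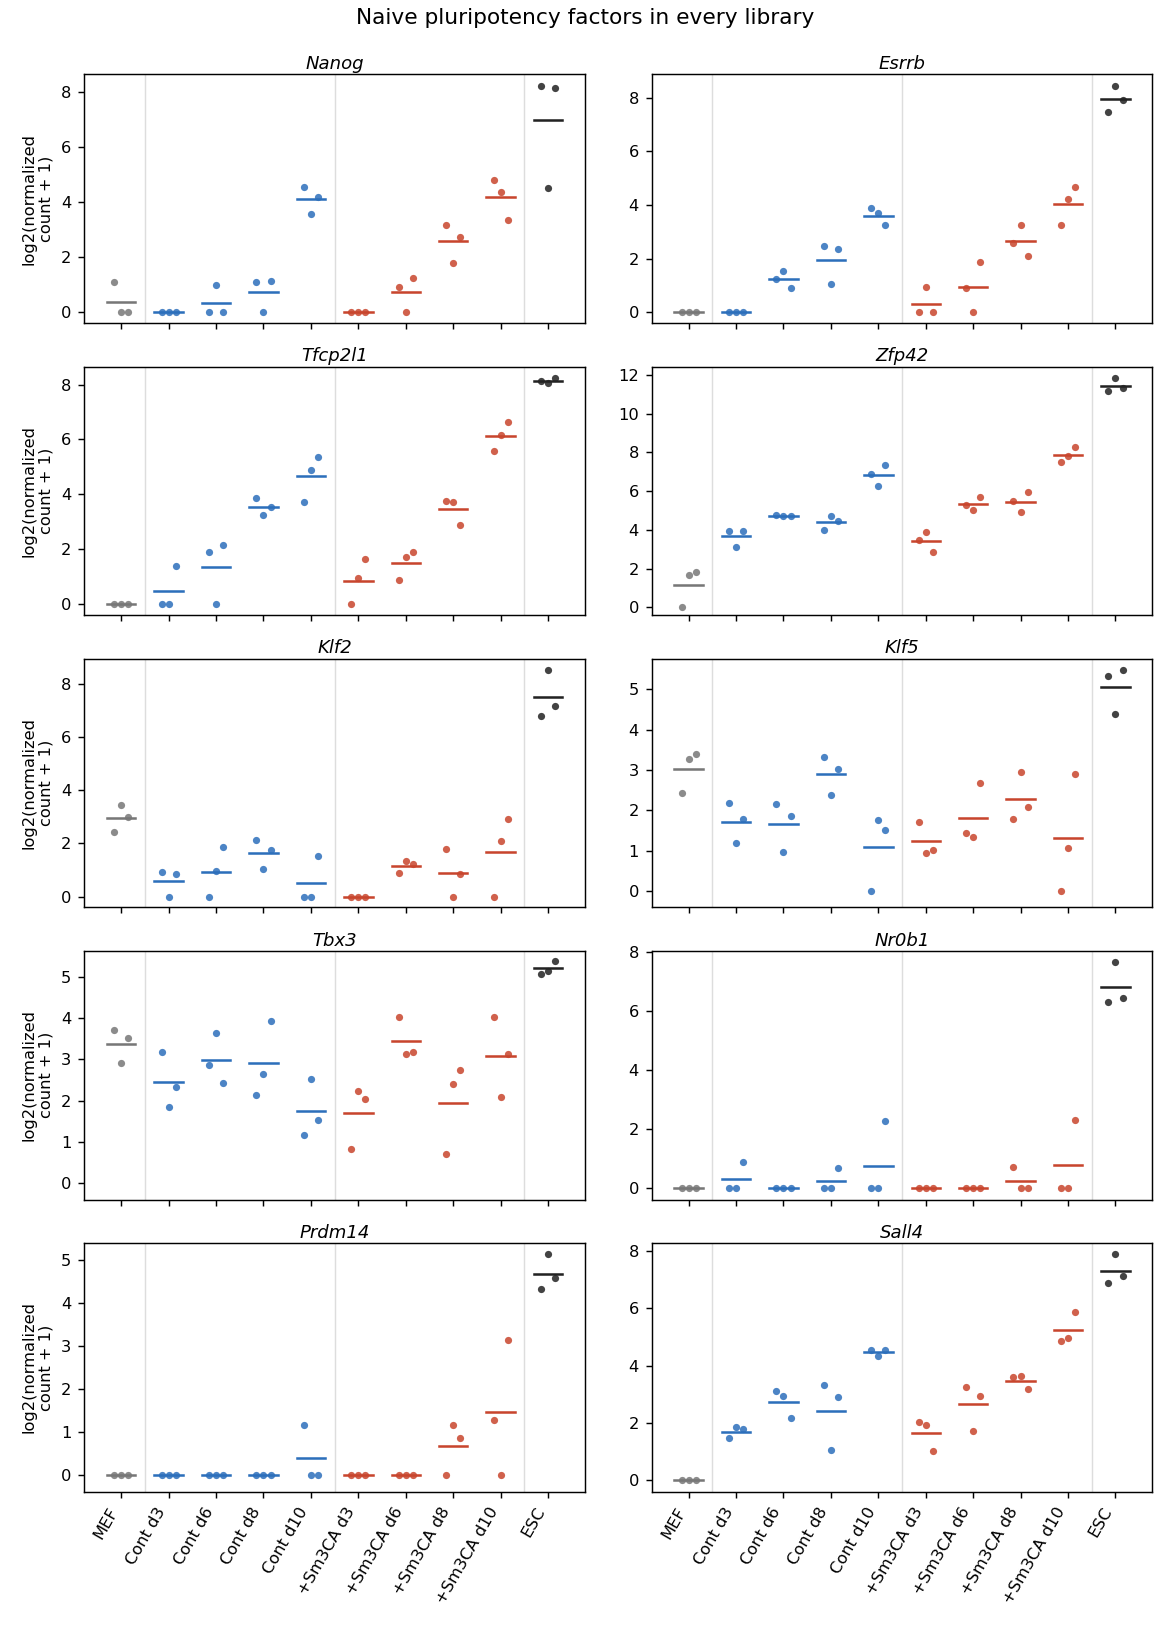
Level of each factor, as log2(normalized count + 1) on the vertical axis, in the 30 libraries by group on the horizontal axis; points are libraries and short lines are the means of the 3 plotted values. Zfp42 and Sall4 are above MEFs from day 3 on, and Nanog stays near 0 in Cont until day 10. The means of Tfcp2l1 rise between days 6 and 10 in both series, and its day 10 libraries are higher in +Sm3CA. Klf5 and Tbx3 start at a level in MEFs that the reprogramming cells do not exceed on day 10 by their means.

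Of the 10 members, 6 passed the filter on low counts among the 24 reprogramming libraries and could be tested between days and between series. These were Nanog, Esrrb, Tfcp2l1, Zfp42, Tbx3 and Sall4. Nanog, Esrrb and Sall4 reached the filter only with day 10 libraries counted in, where they were high. Rises of these genes to day 10 are therefore not independent of the filter. Klf2, Klf5, Nr0b1 and Prdm14 were too low and are described by their reads. In this bulk material, fewer cells that express a gene cannot be told apart from less RNA of it per cell.

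Zfp42 and Sall4 were the members called higher than in MEFs on day 3. In Cont, Zfp42 stood at 26.3, 24.9 and 25.5 normalized counts on day 6, above every day 3 library, at 14.7, 25.3 and 20.9 on day 8 and at 116, 75.3 and 160 on day 10. Its level on day 8 thus overlapped that on day 6, and all day 10 libraries lay above both. The step from day 3 to day 6 missed the threshold (log2 fold change 1.01, standard error 0.36, adjusted p = 0.0726 from edgeR). It passed with the replicate number as a block (adjusted p = 0.0466). In that step 3 of the 6 members tested (Esrrb, Zfp42 and Sall4) had an unadjusted p under 0.05, as did 2348 of the 10237 genes tested. Without the block none of the 6 was called, where 9.12% of all genes were. DESeq2's Wald test also called 0. Nanog, with 0 reads on day 3 and 1 on day 6, was too low to be called. From day 8 to day 10 the log2 fold change was 2.53, with a standard error of 0.30 and an adjusted p of 5.68e-07.

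In +Sm3CA, Zfp42 was at 9.98, 13.9 and 6.26 on day 3, overlapping Cont, and at 38.5, 31.0 and 51.3 on day 6. It rose in this step by 1.96 (log2) with a standard error of 0.36 (adjusted p = 0.000144), while 18.6% of all genes were called. On day 8 it was at 44.5, 28.8 and 60.5, overlapping day 6 (log2 fold change 0.15, adjusted p = 0.815), and on day 10 it reached 182, 227 and 306. The second rise, from day 8 to day 10, was 2.44 (log2) with a standard error of 0.26 (adjusted p = 4.74e-08). Zfp42 moved in steps in both series, with group means of 0.722% to 1.59% of the ESC level on days 6 and 8 and of 4.17% (Cont) and 8.48% (+Sm3CA) on day 10. Without ESC replicate 2 the day 10 shares were 4.90% and 9.98%.

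Sall4 followed a like course at a higher share of ESC. In Cont it started on day 3 from 1.39% ± 0.263 (SD, n = 3) of the ESC level, stood near 3.63% ± 1.31 and 3.39% ± 2.50 on the next 2 days sampled and reached 13.0% ± 1.17 on day 10 (16.6% without ESC replicate 2). The day 10 libraries, at 22.2, 19.1 and 22.6 normalized counts, were close together and above all of day 8, which were at 9.06, 1.06 and 6.56. The log2 fold change of this step was 1.90 (standard error 0.50, adjusted p = 0.0270). It lost the threshold without any of 5 of the 6 libraries in turn, all but replicate 1 of day 8, and the adjusted p ranged up to 0.168 without replicate 2 of day 8.

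In +Sm3CA, Sall4 was at 11.1, 11.6 and 8.07 on day 8 and at 28.0, 30.6 and 57.3 on day 10. It rose by 1.89 (log2) with a standard error of 0.43 (adjusted p = 0.00684), and the adjusted p was 0.0960 without replicate 3 of day 10. The +Sm3CA libraries all lay above the Cont libraries on day 10, by a log2 difference of 0.87 (standard error 0.42) that did not pass the test (adjusted p = 0.300), and their mean was 23.6% ± 9.89 of the ESC level (30.1% without ESC replicate 2).

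Tfcp2l1, a CP2-family factor downstream of LIF and STAT3, appeared later. It had 2 reads in all Cont libraries of day 3 and 3 in those of +Sm3CA. In Cont it was at 2.77, 0 and 3.51 normalized counts on day 6, at 13.6, 8.44 and 10.7 on day 8 and at 12.3, 28.7 and 40.5 on day 10. The day 8 libraries were above all those of day 6, a step that narrowly missed the threshold (log2 fold change 2.24, standard error 0.64, adjusted p = 0.0621). No member was called from day 6 to day 8 in Cont by edgeR or by DESeq2's Wald test, and 1.69% of all genes were called by edgeR. Tfcp2l1 was the 1 member with an unadjusted p under 0.05, against 1333 of the 10237 genes tested. Day 8 and day 10 overlapped in Cont, through replicate 1 of day 10 (1.34 in log2 with a standard error of 0.46, adjusted p = 0.126).

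In +Sm3CA, Tfcp2l1 was at 0.855, 2.33 and 2.70 on day 6 and at 12.4, 12.3 and 6.46 on day 8, the 1 call among the members in this step (2.40 in log2 with a standard error of 0.66, adjusted p = 0.0218), where 6.68% of all genes were called. Leaving out any of 5 of the 6 libraries, all but replicate 3 of day 8, took this call above the threshold, with adjusted p values up to 0.115 without replicate 1 of day 6. On day 10 Tfcp2l1 was at 46.3, 71.0 and 99.0, without overlap with day 8. It rose by 2.77 (log2) with a standard error of 0.43 (adjusted p = 8.93e-05) and reached 25.6% ± 9.38 of the ESC level, against 9.67% ± 5.03 in Cont (24.8% and 9.34% without ESC replicate 2).

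Nanog, the homeodomain factor whose GFP reporter these cells carry, was among the last. It had 0 reads on day 3 in both series, 1 read on day 6 in Cont and 2 in +Sm3CA. On day 8 it was at 1.13, 0 and 1.19 normalized counts in Cont (3 reads) and at 8.03, 2.45 and 5.65 in +Sm3CA (24 reads). On day 10 it was at 22.2, 10.8 and 17.0 in Cont and 26.6, 19.7 and 9.11 in +Sm3CA. The libraries of the 2 series did not overlap on day 8 and overlapped widely on day 10.

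The step from day 8 to day 10 in Cont was the largest change of a tested member between successive days, 45 reads against 3 or 19.4-fold (95% counting interval 6.24 to 97.7, adjusted p = 0.00275 from edgeR). Nanog, Zfp42 and Sall4 were the 3 members called higher in this step, in which 1.58% of all genes were called higher. Of these, Nanog and Sall4 had passed the filter on low counts only with day 10 libraries counted in. In +Sm3CA the corresponding change came in 2 smaller steps, of 2.86 (standard error 0.96, adjusted p = 0.0659) from day 6 to day 8 and 1.76 (standard error 0.61, adjusted p = 0.0872) from day 8 to day 10, neither of which passed the threshold although the libraries of successive days did not overlap. Tfcp2l1, Zfp42 and Sall4 were called higher from day 8 to day 10 in +Sm3CA, where 2.43% of all genes were. The same limit of the filter holds here for Sall4.

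On day 10 Nanog reached 8.24% ± 2.84 of the ESC level in Cont and 9.15% ± 4.37 in +Sm3CA. Against ESC replicates 1 and 3 alone these shares were 5.70% ± 1.97 and 6.32% ± 3.02. The highest day 10 libraries, at 22.2 and 26.6, lay above the 21.7 of ESC replicate 2, so the day 10 and ESC libraries of Nanog overlapped in both series.

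Esrrb, an orphan nuclear receptor that can stand in for NANOG in self-renewal, passed no test between successive days. It had no read in Cont on day 3 and 5 reads on day 6, in 3 of 3 libraries, and was at 4.53, 1.06 and 4.18 normalized counts on day 8 and 13.6, 11.9 and 8.48 on day 10. In +Sm3CA it was at 4.94, 8.58 and 3.23 on day 8 and 8.41, 17.5 and 24.7 on day 10. The Cont libraries of day 10 lay above those of day 8, while in +Sm3CA 1 library of day 10 lay just below the highest of day 8. The adjusted p values were 0.205 in Cont and 0.125 in +Sm3CA from day 8 to day 10. Esrrb ended at 4.48% ± 1.03 and 6.68% ± 3.24 of the ESC level, or 5.51% and 8.20% of that of ESC replicates 1 and 3.

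Tbx3 and Klf5 had no steady order of levels over the days. Tbx3 was at 0.768, 3.71 and 3.13 normalized counts in +Sm3CA on day 3 and at 15.4, 7.76 and 8.10 on day 6, an increase that passed the test (log2 fold change 2.08, standard error 0.74, adjusted p = 0.0450), but not with the replicate block (adjusted p = 0.0620), by DESeq2's Wald test (adjusted p = 0.0852) or without any 1 of the 6 libraries (adjusted p up to 0.224 without replicate 1 of day 6). On day 8 it was at 0.618, 4.29 and 5.65, below all libraries of day 6, and on day 10 at 15.4, 3.28 and 7.81. In Cont Tbx3 was at 3.40, 5.28 and 14.3 on day 8 and at 1.23, 4.78 and 1.88 on day 10. Its mean was 7.29% ± 5.22 of the ESC level on day 10 in Cont and 24.5% ± 17.0 in +Sm3CA, and the libraries overlapped (log2 difference 1.70, standard error 0.81, adjusted p = 0.286).

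Klf5 rested on few reads throughout. In Cont it had 8, 9, 24 and 4 reads in the 3 libraries of days 3, 6, 8 and 10, and in +Sm3CA 5, 8, 19 and 6. The day 8 libraries of Cont, at 9.06, 4.22 and 7.16 normalized counts, lay above those of both day 6 and day 10, the latter being at 0, 2.39 and 1.88. By its means Klf5 was at 19.9% ± 7.11 of the ESC level on day 8 and 4.15% ± 3.67 on day 10 in Cont, against 22.0% in MEFs. It did not pass the filter on low counts over the 24 reprogramming libraries.

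Klf2, Nr0b1 and Prdm14 were close to absent. Klf2 had 2 to 8 reads per group in Cont, 0 to 8 in +Sm3CA, and at most 1.6% ± 1.59 of the ESC level, reached on day 10 in +Sm3CA with 0, 3 and 5 reads (2.61% without ESC replicate 2). Nr0b1, also called Dax1, an orphan nuclear receptor of the X chromosome that binds OCT4, had at most 1 read in any group up to day 8. On day 10 it had 4 reads in Cont and 3 in +Sm3CA, all of them in replicate 3 of the series. Prdm14, a PR-domain protein that represses FGF signaling and DNA methyltransferase genes in naive and germ cells, was first read on day 8 in +Sm3CA (3 reads in 2 of 3 libraries) and on day 10 in Cont (1 read).

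On day 10 Prdm14 had 1, 0 and 6 reads in +Sm3CA and 1, 0 and 0 in Cont. The ratio was 7.91 with a 95% counting interval of 1.02 to 356, and 6 of the 7 reads came from 1 library, so that the mean share of 12% of the ESC level had an SD of 16.3. Klf2 gave 4.52 (0.902 to 43.7) with 8 reads against 2. For both genes the libraries of the series overlapped on day 10, and at this depth no difference beyond the spread between libraries was detectable.

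**Figure D3:**
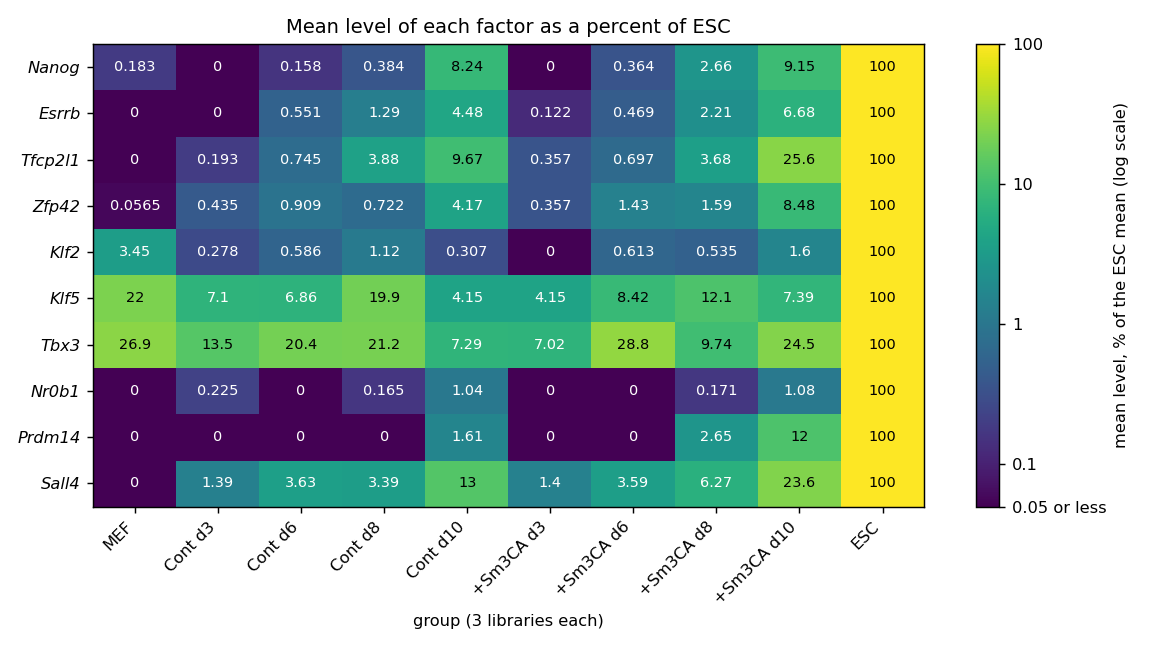
Mean level of the 10 factors (rows) in the 10 groups (columns) as a percent of the mean of the 3 ESC libraries, printed in each cell and colored on a log scale. On day 10 Sall4 (13.0%) and Tfcp2l1 (9.67%) lead in Cont and Tfcp2l1 (25.6%), Tbx3 (24.5%) and Sall4 (23.6%) in +Sm3CA, and Klf2 and Nr0b1 stay at or below 1.6%; without ESC replicate 2 Sall4 leads in both series.

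Taken over the 10 members, the median share of the ESC level in Cont went through 0.251%, 0.665%, 1.20% and 4.33% from the first to the last day. In +Sm3CA it went through 0.240%, 0.655%, 2.66% and 8.81%. With replicates 1 and 3 as the ESC level, the day 10 medians were 5.21% in Cont and 9.09% in +Sm3CA. Single libraries moved the day 3 medians by more than 1.5 times. That of Cont was 0.109% without its replicate 3, 0.377% without its replicate 2 and 0.394% without ESC replicate 2, and that of +Sm3CA was 0.144% without its replicate 2. The +Sm3CA median of day 10 was 6.2% without its replicate 3 and 10.3% without its replicate 1. These medians describe the list and carry no test, and the SDs used below leave out the spread of the ESC libraries. Of the 10 members, 6 were read in every library of day 10 in either series, and 10 in every ESC library. On day 10 the shares in Cont ran from Sall4, Tfcp2l1, Nanog and Tbx3 through Esrrb, Zfp42 and Klf5 (4.48% to 4.15%) to Prdm14, Nr0b1 and Klf2 (1.61% to 0.307%), and neighbours in this order lay within the larger of their SDs. The order in +Sm3CA was Tfcp2l1, Tbx3, Sall4, Prdm14, Nanog, Zfp42, Klf5, Esrrb, Klf2 and Nr0b1, where neighbours again lay within the larger of their SDs except Esrrb (6.68% ± 3.24) and Klf2 (1.6% ± 1.59). The order depended on ESC replicate 2. Without it the order in Cont was Sall4 (16.6%), Tfcp2l1 (9.34%), Tbx3 (7.11%), Nanog, Esrrb, Zfp42, Klf5, Prdm14, Nr0b1 and Klf2, and Sall4 and Tfcp2l1 then differed by more than the larger of their SDs (1.49 and 4.86). In +Sm3CA it was Sall4 (30.1%), Tfcp2l1 (24.8%), Tbx3 (23.9%), Prdm14, Zfp42, Esrrb, Nanog, Klf5, Klf2 and Nr0b1.

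All 10 members were still lower than in ESCs on day 10, in both series, in comparisons where 21.5% (Cont) and 18.6% (+Sm3CA) of all 10979 genes were lower. Klf2, Klf5, Nr0b1 and Prdm14 entered this fit only through the ESC libraries, where they were high, so their direction was fixed in advance. The Nanog libraries of day 10 overlapped those of ESCs in both series. The 2 comparisons share the ESC libraries. The log2 fold changes ran from −7.87 for Klf2 to −2.91 for Sall4 in Cont and from −6.39 for Nr0b1 to −1.93 for Tfcp2l1 in +Sm3CA, and the values for Klf2 in Cont, Prdm14 in Cont and Nr0b1 in +Sm3CA rest on 1 to 3 reads. The median over all genes tested was 0.15 in both comparisons. DESeq2's Wald test called 9 and 8 of the 10. Zfp42, for example, was lower by 4.57 in Cont (standard error 0.28, adjusted p = 1.46e-17) and by 3.52 in +Sm3CA (standard error 0.27, adjusted p = 1.29e-14).

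The effect of Smad3CA on these factors was addressed by comparing +Sm3CA with Cont on the same day. On day 3 none of Zfp42, Tbx3 and Sall4 was called by edgeR or by DESeq2's Wald test, and 0.0195% of all genes were called. None of them had an unadjusted p under 0.05, against 523 of the 10237 genes tested. Nanog, Esrrb and Tfcp2l1 had 3 or fewer reads in both groups of day 3 and passed the filter only through later days, so that no difference could be called for them. On day 6 none of the 6 was called by either tool, Nanog again having 3 or fewer reads in both groups, and 0.00977% of all genes were called. An unadjusted p under 0.05 was found for 1 member (Zfp42) and for 426 of the 10237 genes tested. Zfp42, at 26.3, 24.9 and 25.5 in Cont and 38.5, 31.0 and 51.3 in +Sm3CA, did not overlap between the series on day 6, with a log2 difference of 0.63 (standard error 0.31, adjusted p = 1.00).

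On day 8 no member was called by edgeR, and 1.04% of all genes were. DESeq2's Wald test gave an adjusted p on that day to Zfp42 alone among the members. Zfp42 was higher by 1.12 on the log2 scale (standard error 0.31) with an adjusted p of 0.0575 from edgeR. This fell under the threshold with the replicate block (0.0411), by DESeq2's Wald test (0.0441), with no filter on low counts (0.00707) and without replicate 2 of +Sm3CA (0.0489). In 8 of the 13 alternative settings it stayed above the threshold, with adjusted p values up to 0.218 by edgeR. Nanog had the largest difference on day 8, 24 reads against 3, a ratio of 6.25 (95% counting interval 1.90 to 32.4, adjusted p = 0.144). Zfp42 and Nanog had an unadjusted p under 0.05, as did 1559 of the 10237 genes tested. Tfcp2l1, at 13.6, 8.44 and 10.7 in Cont and 12.4, 12.3 and 6.46 in +Sm3CA, did not separate the series on that day (log2 difference −0.03, standard error 0.49, adjusted p = 0.985).

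On day 10 2 of the 6 tested members, Tfcp2l1 and Zfp42, were called higher in +Sm3CA and none lower, while 0.83% of all genes were called higher. Tfcp2l1, at 12.3, 28.7 and 40.5 in Cont and 46.3, 71.0 and 99.0 in +Sm3CA, was higher by 1.4 (log2) with a standard error of 0.41 (adjusted p = 0.0431). Zfp42, at 116, 75.3 and 160 against 182, 227 and 306, was higher by 1.03 (standard error 0.25, adjusted p = 0.00990). For both, every +Sm3CA library lay above every Cont library. By DESeq2's Wald test Zfp42 was called (adjusted p = 0.0218) and Tfcp2l1 was not (adjusted p = 0.0791). DESeq2 gave no adjusted p to Nanog, Esrrb and Tbx3 on day 10. Tbx3 and Sall4 had unadjusted p values under 0.05 that did not survive the adjustment. Of the 10237 genes tested, 1630 had an unadjusted p under 0.05. Nanog, at a log2 difference of 0.16 (standard error 0.58, adjusted p = 0.933), and Esrrb, at 0.61 (standard error 0.59, adjusted p = 0.683), were not called.

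The calls of day 10 depended on single libraries, among the members as among all genes. Without replicate 2 of Cont or without replicate 3 of +Sm3CA, none of the members was called (Zfp42 adjusted p = 0.116 and 0.121, Tfcp2l1 0.124 and 0.267), and without replicate 1 of Cont or replicate 2 of +Sm3CA Zfp42 alone was. Over all genes, in the same order, 176 of 10569, 176 of 10604, 450 of 10631 and 201 of 10633 were called. With all libraries it was 366 of 10237. When leaving out each replicate, the log2 difference stayed at 0.81 to 1.35 for Zfp42 and 1.09 to 1.84 for Tfcp2l1. Replicate 3 of +Sm3CA held the highest level of 8 of the 10 members in its group and the lowest of 1, Nanog. The change of the difference between day 3 and day 10, tested as an interaction, was called for none of Zfp42, Tbx3 and Sall4 by edgeR or DESeq2, against 1.01% of all genes. The other tested members had 3 or fewer reads in both groups of day 3. Zfp42 (log2 1.35, standard error 0.49, adjusted p = 0.208) and Tbx3 (2.72, standard error 1.14, adjusted p = 0.302) had unadjusted p values under 0.05. So did 1236 of the 10237 genes tested.

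**Figure D4:**
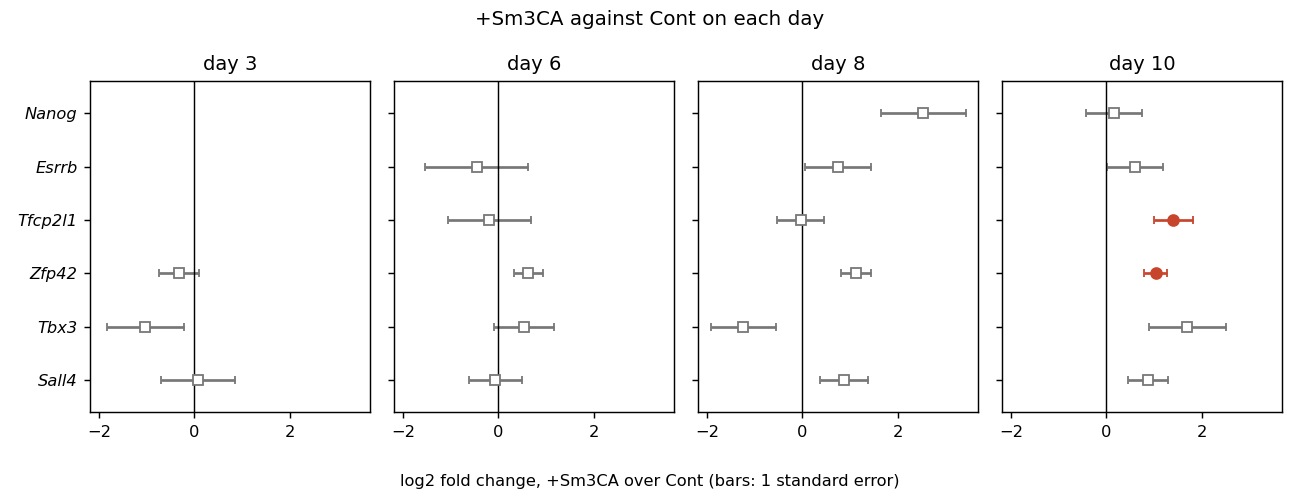
Log2 fold change of +Sm3CA over Cont (horizontal axis) for the 6 members that could be tested, on days 3, 6, 8 and 10; bars are 1 standard error, filled circles mark adjusted p under 0.05 and open squares the rest, and genes with 3 or fewer reads in both groups are left out. The 2 called values are Tfcp2l1 (1.4) and Zfp42 (1.03) on day 10, and Nanog has its largest value, 2.53, on day 8.

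Part of the fibroblast markers differed between the series on day 10. Of the 10 fibroblast markers 4 were lower in +Sm3CA and none was higher, while 2.74% of all genes were called lower, with Postn at −1.69, Col1a1 at −1.28 and Prrx1 at −1.13 as the largest (adjusted p = 0.00891, 0.00771 and 0.0373). The log2 difference was above 0 for 2 of the 10, and its median was −0.97. The summed level of the 10 markers overlapped, at 1220 to 2520 normalized counts in Cont and 1220 to 1570 in +Sm3CA, with 0 of the 10 without reads in either. The share of reads in mitochondrial genes was 15.9% to 18.9% in Cont and 20.9% to 24.3% in +Sm3CA on that day. The part of either in the differences of Zfp42 and Tfcp2l1 was not tested.

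Other genes of the network and its inputs were taken from lists chosen with earlier results of these data known. Of 13 other network factors 10 were tested, and on day 10 Rif1, a telomere- and replication-associated protein that occupies targets of the network, was the 1 called (log2 difference 0.98, standard error 0.20, adjusted p = 0.00232). The median of the 10 was 0.37, against −0.01 over all genes, of which 0.83% were called higher and 2.74% lower on day 10. Of the 13 LIF and WNT inputs 10 were tested and none was called on day 10, with Lifr at 0.81 (adjusted p = 0.404), Stat3 at −0.49 (adjusted p = 0.361) and Socs3, a direct STAT3 target, at −0.19 (adjusted p = 0.809). Of the 10 formative and primed genes 3 were tested and none was called. Of the 10 ESC markers, which include germline and metabolic genes of naive cells, Dppa5a (1.35, adjusted p = 0.0104) and Dppa3 (2.14, adjusted p = 0.0122) were higher and none was lower. None of the 5 tested trophectoderm markers, 3 primitive endoderm markers or 3 germ cell markers was called on day 10.

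Along the time course, the other network factors called in Cont were Pou5f1 (1.65) and Sall1 (2.33) from day 3 to day 6, Zscan10 (2.98) from day 6 to day 8 and Etv5 (2.01) from day 8 to day 10, all higher. In +Sm3CA they were Pou5f1 (2.33) and Sall1 (3.23) from day 3 to day 6, Etv5 (2.27) from day 6 to day 8, and 4 genes from day 8 to day 10, the largest being Zscan10 (1.75), Etv5 (1.62) and Rif1 (1.36). In the same order of steps, 4.91%, 1.4% and 1.58% of all genes were called higher in Cont and 9.62%, 2.98% and 2.43% in +Sm3CA. Whether any reads of Pou5f1, Sox2 and Klf4 came from the MKOS cassette was not tested. In MEFs, which lack the cassette, Klf4 was at 27.8, 16.3 and 19.9 normalized counts. Sox2 was at 13.0 to 25.2 normalized counts in Cont on day 3 and 17.9 to 27.3 on day 10, against 227, 997 and 271 in the ESC libraries, and Klf4 at 13.4 to 19.5 and 8.64 to 13.2 against 54.8, 134 and 63.0. Among the ESC markers, 6 of 10 were called higher from day 8 to day 10 in Cont and 7 of 10 in +Sm3CA, the steps in which Zfp42 and Sall4 rose in both series.

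The genes whose group means were most like those of a member, by Pearson's r of log2 CPM (counts scaled to the library total) over the 10 groups and among 10978 genes, differed by member. Zfp42 and Sall4 were each other's nearest gene (r = 0.993). The nearest to Nanog was Trim6 (0.991), to Esrrb Nup188 (0.993), to Tfcp2l1 Gdf3 (0.988), to Klf2 Ninl (0.988), to Klf5 Glb1 (0.961) and to Tbx3 Tlcd1 (0.951). For the members with almost no reads outside ESCs, Nr0b1 and Prdm14, the nearest were C330013F16Rik (0.999) and BC033916 (0.995). The points share their libraries and the ESC group dominates most of them, so these values are a description and carry no test. Among the 45 pairs of members the lowest r was that of Klf5 and Sall4 (0.464).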

How the data were processed

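The deposited table held raw read counts per gene for 84 wells, which the authors made from STRT reads; the submitters' processing notes name Bowtie 0.12.9, DESeq2 1.6.3 and mm10, without their roles. Wells of a replicate were summed to 30 libraries of 1008596 to 2296059 reads (median 1602511). The members and all gene lists were chosen with earlier results of these data known. The 10 members were named throughout, with other genes named only where called in a list or nearest in profile.

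Counts were fitted with edgeR 4.0.16 (quasi-likelihood test, TMM, its filter on low counts) in R 4.3.3, over the 24 reprogramming libraries, MEFs with ESCs, or all 30 libraries, with Benjamini-Hochberg adjustment over all genes tested and a threshold of 0.05. Levels are counts divided by DESeq2 1.42.0 size factors; adjusted p values that DESeq2 gave as NA stayed NA. Tables were handled with Python 3.11.15 and pandas 2.3.3. On simulated data for day 10 (10240 genes, 200 changed 4-fold) edgeR called 153 in the right direction and 11 unchanged genes, and DESeq2 called 145. The simulation gave every group the same mean per gene and changed genes picked at random. Its rates therefore do not carry over to the low counts and smaller differences of the members.

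Replicate numbers are paired over days within a series by the study's design, and between the series no pairing is stated; deviations of same-numbered libraries correlated at −0.145 to 0.136. The alternatives were other scaling, no filter, a replicate block, DESeq2, other sets of libraries and leaving out each replicate. A block with numbers shared by both series and leaving out each ESC library from the ESC level were chosen after seeing the data. Promoter windows are from RefSeq (GRCm38.p6).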

Additional observations from a re-analysis of the deposited data

How the results depend on the processing

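Counts of members called depended on the setting in several comparisons. On day 8, +Sm3CA against Cont gave 1 call in place of 0 with no filter on low counts, with either replicate block and by DESeq2, and 0 to 1 when leaving out each replicate. Over all genes these settings called 264 of 17993, 126 and 95 of 10237 (block within series and shared) and 138 of 4425. The main setting called 106 of 10237, and leaving out each replicate 21 to 523 genes. On day 10 DESeq2 gave 1 in place of 2, Tfcp2l1 missing the threshold, and leaving out each replicate gave 0 to 2. Over all genes DESeq2 called 328 of 9642 and the main setting 366 of 10237, and leaving out each replicate gave 176 to 450. From day 3 to day 6 in Cont, no filter, the replicate block and a fit of the compared groups alone each gave 1 in place of 0, and no filter gave 1 from day 6 to day 8. Over all genes these were 940 of 17993, 924 of 10237 and 1616 of 8456 against 934 of 10237. From day 6 to day 8 they were 265 of 17993 against 173 of 10237. From day 3 to day 6 in +Sm3CA, the replicate block, DESeq2 and the compared groups alone gave 1 in place of 2, as did leaving out each replicate (1 to 1). Over all genes these settings called 1887 of 10237, 1686 of 11382 and 1638 of 8613, and the main setting 1903 of 10237. Leaving out each replicate gave 1175 to 1850 genes. From day 6 to day 8 in +Sm3CA, DESeq2 and the compared groups alone gave 0 in place of 1, and leaving out each replicate 0 to 1. Over all genes they called 713 of 6859 and 252 of 9034, against 684 of 10237, and leaving out each replicate 163 to 1062. Cont on day 3 against MEFs gave 0 in place of 3 with the compared groups alone, where 4491 of 8776 genes were called against 4770 of 10979. With the compared groups alone, Tbx3 from day 3 to day 6 and Tfcp2l1 from day 6 to day 8 in +Sm3CA, and Zfp42, Sall4 and Klf2 against MEFs, did not pass the filter on low counts and were not tested. DESeq2 gave no adjusted p to Tfcp2l1 from day 6 to day 8 or to Sall4 from day 8 to day 10 in +Sm3CA. The cause of the other changes was not tested. The replicate block changed no other call. The median share of the ESC level in Cont on day 10 was 5.81% with CPM of the library total, and 4.18% to 5.21% when leaving out each replicate. The log2 difference of Tfcp2l1 on day 8 (−0.03) turned to 0.0466 and 0.0440 with the replicate block within series and shared, and ranged from −0.17 to 0.19 when leaving out each replicate, where values of 0.12 and 0.19 were reversed. That of Nanog on day 10 (0.16) turned to −0.06 and −0.16 without Cont replicate 2 and +Sm3CA replicate 1, the range being −0.16 to 0.50. Scaling to the ERCC spike-ins was not run, since the table used here has no spike-in genes. Depth limited Klf2, Klf5, Nr0b1 and Prdm14, which had 24 or fewer reads in every reprogramming group.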
